A study of Homo sapiens with 3 samples.

Results

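The zinc finger genes of human chromosome 19 were followed in HepG2 cells, a human hepatocellular carcinoma line, after treatment with the topoisomerase II poison etoposide. A gene was taken as a member if the array design gave it a ZNF symbol (ZNF, digits and at most 1 letter) and placed its probe on chromosome 19, and each gene was read through its brightest probe. By this rule 243 of the 27274 genes on the arrays were members. They were set beside 284 ZNF genes of other chromosomes and 1428 chromosome 19 genes without a ZNF symbol. The rule used name and position and no measured difference between doses.

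The study compared control cells, which the labels call untreated with 0 μM etoposide, with cells given the low dose of etoposide (10 μM) or the high dose (100 μM), all harvested at 30 h. It asked which transcripts separate a dose used to drive HepG2 cells into senescence from a dose used to drive them into apoptosis. Total RNA of each condition was labeled with Cy3 and hybridized to 1 array, so the 3 conditions have 1 array each and no difference between doses could be tested. All fold changes, counts and medians are therefore descriptions of 3 arrays. Each array measured the RNA of a whole culture, so fewer cells with a transcript and less transcript per cell cannot be told apart.

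Chromosome 19 carries long tandem arrays of zinc finger genes, most of which encode a KRAB domain followed by a row of C2H2 fingers. The fingers bind DNA, and the KRAB domain recruits the corepressor TRIM28 (KAP1), which in turn brings the histone H3 lysine 9 methyltransferase SETDB1, HP1 proteins and histone deacetylases to the bound site. Many of these proteins silence transposable elements, and few have known target genes. Some members have been tied to DNA damage, such as ZNF420 (Apak), a repressor of p53 activity, and ZNF350 (ZBRK1), which represses GADD45A together with BRCA1.

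Each array held 43118 non-control spots of 34127 probes, of which 20114 (control), 19836 (low dose) and 20151 (high dose) were well above background by the scanner software, and no spot was saturated. The signal at the 75th percentile, by which each array was scaled, was 514, 536 and 432. CDKN1A, the p53 target that encodes the cell cycle inhibitor p21, had signals of 170 without drug, 1407 at 10 μM and 1010 at 100 μM (7.94-fold and 7.07-fold after scaling). All 7 hepatocyte markers (ALB, AFP, APOA1, TTR, TF, SERPINA1 and FGB) were above background on every array. Of 6 markers of other cell types, the collagens COL1A1 and COL3A1 were above background on no array. The other 4 were above background on all 3, with signals in control, low and high dose cells of 257, 131 and 288 for PTPRC, 173, 239 and 409 for CD68, 473, 298 and 286 for PECAM1 and 46.8, 34.6 and 52.9 for CD3E. The part of these transcripts in the zinc finger signals was not tested.

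Because the fingers of this family are alike, the probes were examined first. Each is a 60-base oligonucleotide. When every member's probe was slid along the probes of all other genes with a ZNF, ZFP, ZSCAN, ZKSCAN or ZIM name, the median of the best match was 31 of 60 bases, and no probe shared 54 or more bases with that of another gene. The closest pair, ZNF254 and ZNF675, shared 51 bases. Probes were compared only with probes, so a match to another part of a relative's transcript would not be seen. A search for bases that could code for the linker joining one finger to the next found a match in 8 probes, and 6 of these 8 were above background on all arrays. The search took any reading frame without a stop and did not ask for a finger on either side. Their sequences, read from the array files 5′ to 3′, are shown because they let the repeated unit of the family be seen in the measuring oligonucleotides. Capitals mark the 15 bases that matched. In the ZNF235 probe the codon before the match is tgc (cysteine), where the other probes shown have cat or cac (histidine). Its match may therefore not be a finger linker.

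ZNF85: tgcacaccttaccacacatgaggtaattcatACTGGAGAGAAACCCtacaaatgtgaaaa
ZNF585B: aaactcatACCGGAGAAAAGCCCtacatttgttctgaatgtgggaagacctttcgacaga
ZNF814: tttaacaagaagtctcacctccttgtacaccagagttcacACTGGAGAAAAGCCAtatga
ZNF274: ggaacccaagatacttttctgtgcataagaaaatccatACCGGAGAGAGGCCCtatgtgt
ZNF235: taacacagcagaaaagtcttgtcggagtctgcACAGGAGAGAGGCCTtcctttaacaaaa
ZNF497: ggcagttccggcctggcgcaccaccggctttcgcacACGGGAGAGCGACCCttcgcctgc

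The marked bases differed from probe to probe. The best match of the ZNF85 probe was 50 bases of the ZNF493 probe, so its signals (750, 838 and 622 in control, low and high dose cells) may include a relative. The best matches of the other 5 probes were 32 to 39 bases. How much RNA of a relative each probe bound was not tested.

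Of the 243 members, 170 were well above background on all 3 arrays, 8 on 2 arrays, 12 on 1 array and 53 on none. In control cells 185 members (76.1%) were above background, against 177 (72.8%) at 10 μM and 176 (72.4%) at 100 μM. Over all genes these shares were 59.4%, 58.6% and 59.6%. Of the 20 members above background on 1 or 2 arrays, 7 were above it in control cells alone, 3 at the low dose alone and 2 at the high dose alone. A further 4 were above it in control and low dose cells and 4 in control and high dose cells. The median signal of the 170 measured members was 139 without drug, 140 at 10 μM and 132 at 100 μM, against 502, 528 and 423 for all 15178 measured genes.

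Most members differed little between the arrays. At the low dose 0 of 170 members were more than 2-fold higher than in control cells (2.44% of all measured genes were) and 1 was more than 2-fold lower (1.09%). At the high dose 4 were more than 2-fold higher (4.83%) and 1 was more than 2-fold lower (3.32%). Between the doses, 1 member was past 2-fold on the low dose side (3.23%) and 3 on the high dose side (2.58%). Other chromosome 19 genes passed 2-fold more often, with 33 of 907 higher and 9 lower at 10 μM and 65 higher and 21 lower at 100 μM. ZNF genes of other chromosomes numbered 2 higher and 3 lower of 207 at 10 μM and 6 higher and 1 lower at 100 μM.

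The median log2 ratio of the members was -0.08 at the low dose (interquartile range 0.46) and 0.08 at the high dose (0.39), each relative to control, and -0.22 for the low over the high dose (0.47). The medians over all genes were -0.03, 0.08 and -0.09, so the members lay below the array median in the comparisons that involve the low dose and at it in the high dose comparison. At the low dose 100 members were lower and 70 higher, and between the doses 125 were lower at the low dose and 45 higher. Of all measured genes 54.5% were below control at 10 μM and 59.4% were lower at 10 than at 100 μM, against 58.8% and 73.5% of the members. The median of ZNF genes elsewhere was -0.04, 0.09 and -0.10 in the 3 comparisons, and that of other chromosome 19 genes was 0.04, 0.20 and -0.17. The scaling sets the zero of every comparison that involves the high dose array. With each array centred on its median instead, the high dose median was -0.21 for members and for all genes, and the calls past 2-fold were 2 members higher and 2 lower (352 and 1017 of all genes, against 733 and 504). The low over high dose median then turned to 0.05 for members and 0.18 for all genes, with 6 members past 2-fold on the low dose side and 1 on the high dose side. The gap between members and all genes in that comparison was -0.12 under either scaling, which had to be so, as both subtract a constant per array. The members' low dose median was below 0 under every scaling tried.

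**Figure D1:**
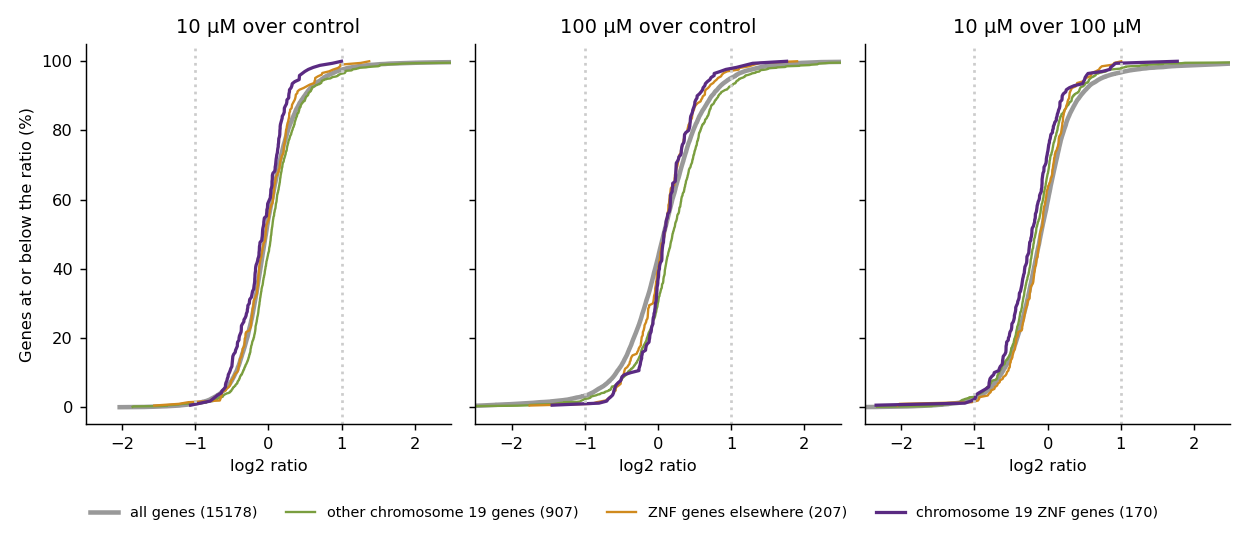
Cumulative share of genes (percent, vertical axis) at or below each log2 ratio (horizontal axis) for the chromosome 19 ZNF genes, ZNF genes of other chromosomes, other chromosome 19 genes and all genes above background on all 3 arrays, with 1 array per condition. Dotted lines mark 2-fold. The members' curve lies to the left of all genes in the low dose and low over high dose panels (medians -0.08 and -0.22 against -0.03 and -0.09).

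By which array a member was highest on, 92 of 170 (54.1%) were highest at the high dose, 47 (27.6%) without drug and 31 (18.2%) at 10 μM, against 45.9%, 33.2% and 20.9% of all genes under the same scaling. The cumulative plot of ratios shows the same ordering as a leftward displacement of the members in the 2 panels that contain the low dose.

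Technical error was read from the 999 probes that the array design spots 10 times. For each gene, the SD between spots of the 50 such probes closest in signal was taken on each array and combined over the pair of arrays. It covers the place on the slide only, not the labeling or the culture. The median of this spot SD over the members was 0.10 in the low dose comparison and 0.11 in the high dose comparison on the log2 scale. At the low dose 26 members (15.3%) were higher than control by more than 2 spot SDs, against 26.7% of all genes, and 55 (32.4%) were lower, against 32.4%. At the high dose 53 members (31.2%) were higher, against 38.9%, and 21 (12.4%) were lower, against 30%. For the low over the high dose 20 (11.8%) were higher, against 25.5%, and 83 (48.8%) were lower, against 39.6%. The remaining 89, 96 and 67 members lay within 2 spot SDs. The median signal of the members was below that of all genes, as given above, and the part of dim signals in these shares was not tested.

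The member with the largest ratios was ZNF224, a KRAB protein known to repress aldolase A and to bind the Wilms tumor protein WT1. Its signal was 88.7 without drug, 61.7 at 10 μM and 252.4 at 100 μM. After scaling it was 3.38-fold higher than control at 100 μM (log2 ratio 1.76, spot SD 0.12) and lower than control at 10 μM (-0.59, spot SD 0.15). The scaled signals of the treated arrays were 5.08-fold apart (-2.34 for the low over the high dose, spot SD 0.13). The gene has 1 probe, at chr19:49304003-49304062 (hg18), so no other probe bears on it.

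ZNF114 had the opposite order. Its signals were 106.8, 139.8 and 33.0 in control, low dose and high dose cells, a log2 ratio of -1.45 at the high dose (2.73-fold lower, spot SD 0.23) and 0.33 at the low dose (spot SD 0.12). It was 3.42-fold higher at 10 than at 100 μM, and no other of the 170 members measured on all arrays passed 2-fold in that direction. Its probe lies at chr19:53481966-53482025 (hg18).

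ZNF404 (34.4, 42.6 and 70.9) and ZNF490 (43.3, 46.9 and 82.8) were also higher at the high dose, by 2.45-fold and 2.27-fold after scaling. Both were within 1 spot SD of control at the low dose (log2 ratio 0.25, spot SD 0.27, and 0.05, spot SD 0.23). ZNF682 had signals of 22.1, 46.1 and 39.1, a log2 ratio of 1.07 (spot SD 0.36) at the high dose. Its ratio at 10 μM fell just short of 2-fold (spot SD 0.35). A second ZNF682 probe had signals of 14.8, 55.5 and 23.5, of which the control value was not well above background.

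Of the 170 members above background on all arrays, ZNF547 was the only one past 2-fold at the low dose. Its signals were 113.9, 56.9 and 63.1, so that both treated arrays lay below control (log2 ratio -1.06, spot SD 0.15, at the low dose and -0.60, spot SD 0.15, at the high dose). A second ZNF547 probe had signals of 24.1, 23.6 and 21.0 (low dose ratio -0.09), none of them well above background. The call therefore rests on 1 probe. The nearest member short of 2-fold among those lower was ZNF790 (49.7, 27.2 and 43.3), at -0.93 (spot SD 0.31) at 10 μM and 0.05 at 100 μM.

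**Figure D2:**
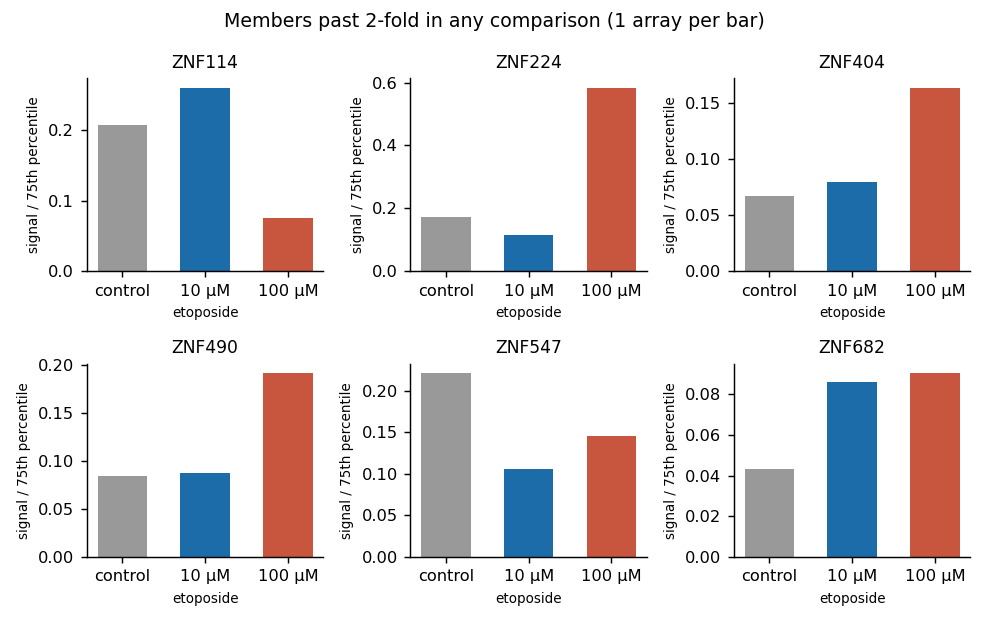
Signal of the 6 members that were above background on all 3 arrays and past 2-fold in any of the 3 comparisons, divided by the 75th percentile of its array (vertical axis, linear from 0, a scale of its own for each gene), in control cells and at 10 and 100 μM etoposide. Each bar is 1 array and has no replicate error. ZNF224, ZNF404 and ZNF490 stood highest at the high dose, ZNF114 lowest at the high dose, ZNF547 lowest at the low dose and ZNF682 lowest in control cells.

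Some members had a signal that crossed the background limit, for which only a bound can be given. The bound sets the brighter signal against the lowest signal of any probe well above background on the dimmer array (19.5, 22.7 and 21.6 on the control, low and high dose arrays) or the dim probe's own signal, whichever is higher. ZNF833, listed as the pseudogene ZNF833P in the current RefSeq set, was well above background at the low dose alone, with signals of 16.8, 119.0 and 13.3, and was at least 5.84-fold higher there than in control cells and at least 4.43-fold higher than at the high dose. ZNF530 (12.8, 43.9 and 7.3) was at least 2.15-fold higher at the low dose, and ZNF90 (4.5, 5.0 and 34.7) at least 2.12-fold higher at the high dose. ZNF253 (77.4, 28.8 and 16.7) was not above background at the high dose, where it was at least 3.01-fold lower. On the control and low dose arrays, where it was measured, its log2 ratio was -1.49. It is left out of the 170 and of the counts past 2-fold.

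The members with the highest low dose ratios after ZNF682 were ZNF99 (69.2, 132.3 and 56.0; log2 ratio 0.87, spot SD 0.14), ZNF324 (112.4, 191.2 and 161.0; 0.71, spot SD 0.11) and ZNF428 (6363, 10162 and 5667; 0.61, spot SD 0.06). ZNF324 was also higher at the high dose (0.77), whereas ZNF99 and ZNF428 were near control there (-0.06 and 0.08). A second, dimmer probe for ZNF428 (127.6, 174.1 and 124.9) had a low dose ratio of 0.39. ZNF564 (0.55), ZNF561 (0.50), ZNF441 (0.46) and ZNF266 (0.43) followed, and second probes for ZNF561 and ZNF266 had 0.44 and 0.32.

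Among the lowest low dose ratios, ZNF616 had signals of 279.6, 168.1 and 196.4 (log2 ratio -0.80, spot SD 0.09) and ZNF614 signals of 481.4, 303.8 and 258.4 (-0.73, spot SD 0.08). The second probe of ZNF614 had -0.52. ZNF227 (-0.69), ZNF573 (-0.64) and ZNF480 (-0.63) completed the 8 lowest, with ZNF420, which is described with its neighbours.

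At the high dose, ZNF418 (47.3, 54.4 and 75.6; log2 ratio 0.93, spot SD 0.19), ZNF44 (153.9, 173.9 and 233.5; 0.85, spot SD 0.10) and ZNF552 (62.0, 57.4 and 88.8; 0.77, spot SD 0.16) were next below the 2-fold limit, together with ZNF324 (0.77), described above. The second probe of ZNF44 had 0.02 at the high dose, so the ratio of ZNF44 rests on 1 of its 2 probes. The lowest after ZNF114 were ZNF100 (144.5, 144.8 and 69.5; -0.81, spot SD 0.14), ZNF333 (90.2, 105.2 and 46.7; -0.70, spot SD 0.19) and ZNF581 (1013, 936 and 531; -0.68, spot SD 0.07). The second probe of ZNF333 (57.7, 63.9 and 55.1) had 0.18 at the high dose, the opposite sign. ZNF100 and ZNF333 were within 2 spot SDs of control at the low dose (-0.06 and 0.16).

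Of 12 members chosen for a known role, 11 were above background on all arrays and ZNF175 was on none. Of the 11, 3 were higher and 8 lower than control at 10 μM, and at 100 μM 6 were higher and 5 lower, with ZNF224 alone past 2-fold. ZNF420 (61.2, 37.7 and 47.5), the p53 repressor, had log2 ratios of -0.76 (spot SD 0.22) at the low dose and -0.11 (spot SD 0.20) at the high dose. Its second probe (31.1, 16.7 and 21.5) was above background in control cells alone. ZNF350, the BRCA1 partner, had signals of 291, 254 and 244, or -0.26 (spot SD 0.09) and 0.00 (spot SD 0.09). ZNF331, an imprinted gene rearranged in thyroid adenomas, had signals of 199, 148 and 117 and was lower at both doses by this probe (-0.49 and -0.51, spot SD 0.10 each). A second ZNF331 probe had signals of 15.3, 43.3 and 15.7 and was above background at the low dose alone, which is the other direction. ZNF675 (929, 1128 and 809), an inhibitor of TRAF6 signaling, had ratios of 0.22 (spot SD 0.07) and 0.05 (spot SD 0.07).

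Among members known to act on repeats, ZNF91, a silencer of SVA elements, had signals of 113.9, 96.2 and 99.8 (-0.30, spot SD 0.12, at 10 μM and 0.06 at 100 μM). ZNF93, a silencer of LINE-1 elements, had 37.9, 43.7 and 24.6 (0.14, spot SD 0.26, and -0.37, spot SD 0.31), which is within 2 spot SDs of control at both doses. ZNF274, which brings SETDB1 to the finger exons of zinc finger genes, had 129.3, 124.0 and 135.5 (-0.12, spot SD 0.11, and 0.32, spot SD 0.11). ZNF146, which consists of fingers alone, had signals of 300, 276 and 173.

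For 9 members the array design repeats the probe 10 times, which lets the spread within an array be seen directly, and 7 of these were above background. The log2 level of ZNF146 relative to the array's 75th percentile was -0.77 ± 0.06 (SD over 10 spots) without drug, -0.96 ± 0.08 at 10 μM and -1.32 ± 0.06 at 100 μM. Every treated spot lay below every control spot. ZNF587 stood at 0.46 ± 0.05, 0.10 ± 0.06 and 0.73 ± 0.08, and its spots on the 3 arrays did not overlap. ZNF565 stood at -2.83 ± 0.09 over 6 usable control spots, -3.06 ± 0.09 over 10 and -2.59 ± 0.07 over 10, with all high dose spots above control and the low dose spots overlapping it. The spots of ZNF14 overlapped across arrays (-2.42 ± 0.12, -2.48 ± 0.05 and -2.41 ± 0.08), as did those of ZNF442 and ZNF571. The treated spots of ZNF426 overlapped those of control (-0.66 ± 0.16 without drug, -0.99 ± 0.08 at 10 μM and -0.70 ± 0.12 at 100 μM), but its low dose spots all lay below its high dose spots. The highest low dose spot of ZNF146 (-0.850) lay just below its lowest control spot (-0.847). How often spots separate between arrays over all probes spotted 10 times was not counted, so no separation here is read as unusual. These SDs describe 1 hybridization and not the spread between cultures.

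A second probe above background on all arrays was available for 43 members, giving 48 pairs. The ratios of a pair had the same sign in 29 pairs at the low dose, 36 at the high dose and 38 for the low over the high dose. The median absolute difference between probes of 1 gene was 0.17, 0.17 and 0.27 on the log2 scale, larger than the median spot SD. ZNF625 (0.14 and 1.51 at the low dose) and ZNF738 (0.24 and -1.04 at the high dose) had probes more than 2-fold apart, so no direction is given for them. The single-probe ratios above are open to errors of this size.

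The members were then ordered along the chromosome and split wherever neighbours lay more than 1 Mb apart, which gave 16 position groups, numbered from the end of the short arm (hg18). Group 3 spans 11.46 to 12.60 Mb (ZNF653 to ZNF791, 26 members), group 5 spans 19.65 to 24.10 Mb (ZNF101 to ZNF254, 33 members) and group 9 spans 41.37 to 42.92 Mb (ZNF565 to ZNF573, 26 members). Group 12 spans 48.73 to 50.27 Mb (23 members), group 15 spans 56.78 to 58.78 Mb (40 members) and group 16 spans 60.69 to 63.68 Mb (58 members). The members of a group are neighbours by tandem duplication and are not independent of each other.

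Group 9 stood lowest at the low dose among groups with 5 or more measured members. The scaled signal of all 16 measured members was below control at 10 μM, with a median log2 ratio of -0.43 and a range of -0.93 to -0.08, and 13 of the 16 were lower by more than 2 spot SDs (32.4% of all genes were). At the high dose the median was -0.14, with 5 members higher and 11 lower. None of the 16 was past 2-fold at the low dose.

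ZNF573 had signals of 708, 473 and 395 in control, low and high dose cells (log2 ratio -0.64, spot SD 0.07, at the low dose). ZNF569, known as a repressor of MAPK signaling reporters, had 389, 278 and 218 (-0.55, spot SD 0.08). ZNF529 had 481, 358 and 342 (-0.49, spot SD 0.08), and ZNF260, described as a regulator of cardiac genes, had 606, 467 and 436 (-0.44, spot SD 0.07). The high dose ratios of ZNF573 and ZNF569 were as low (-0.59 and -0.58), while those of ZNF529 and ZNF260 were -0.24 and -0.22.

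ZNF345 had 129.8, 90.6 and 105.9 (-0.58, spot SD 0.12) and ZNF567 had 122.9, 89.3 and 91.9 (-0.52, spot SD 0.13). The second probes of ZNF345, ZNF567 and ZNF382 had low dose ratios of -0.65, -0.62 and -0.45, close to those of the first probes (-0.58, -0.52 and -0.42). Dimmer members were less certain. ZNF382, a KRAB repressor of AP-1 and NF-κB signaling genes, had 44.7, 34.9 and 52.1 (-0.42, spot SD 0.26), and ZNF585A had 49.8, 49.1 and 68.5 (-0.08, spot SD 0.21). ZNF607 (1749, 1523 and 1315) was lower by a small amount (-0.26, spot SD 0.07).

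The 10 members of group 9 outside the 16 were above background on fewer than 3 arrays. Of the 6 measured genes in the same interval without a ZNF symbol, 5 were lower at the low dose and the median was -0.37. They include the KRAB zinc finger genes HKR1 (-0.59), ZFP82 (-0.41) and ZFP30 (-0.25), which the naming rule had left out. In other groups, genes without a ZNF symbol did not always share the members' sign. In groups 3, 12 and 16 their low dose medians were -0.27, 0.13 and 0.10, against 0.05, -0.14 and -0.17 for members. In groups 5 and 15 they were 0.09 and -0.23, against 0.11 and -0.13. The median of group 9 lay -0.40 from the all-gene median. Alternatives that rescale an array by a constant cannot change this difference. Under the others tried it stayed below 0, from -0.27 with another background correction to -0.57 with no filter on dim probes. With no filter 24 of 26 members lay below the all-gene median.

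**Figure D3:**
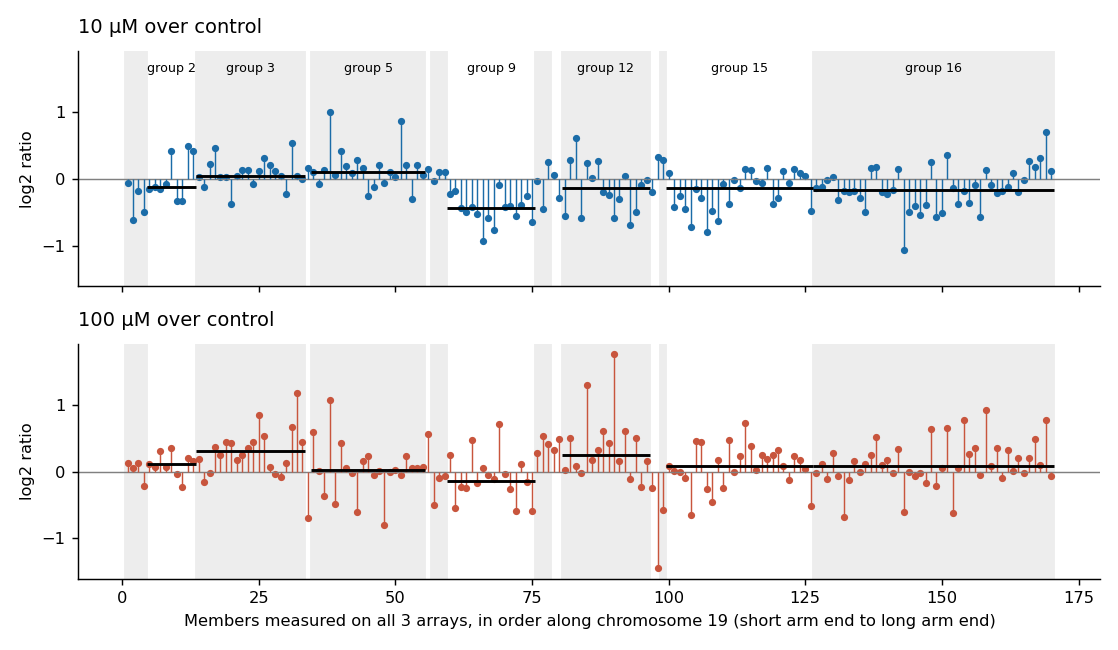
Log2 ratio to control (vertical axis) of the 170 measured members in their order along chromosome 19 (horizontal axis, rank and not distance), at 10 μM above and 100 μM below. Shading separates neighbouring position groups, and horizontal bars give the median of groups with 5 or more measured members. In the upper panel all 16 points of group 9 lie below 0 (median -0.43).

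Groups 3 and 5 lay above the all-gene median at the low dose. In group 3, 16 of 20 measured members were higher than control and 4 lower (median 0.05). By more than 2 spot SDs, 6 of the 20 were higher and 2 lower, where 26.7% and 32.4% of all genes were. Again 16 were higher and 4 lower at 100 μM (median 0.31), where 56.8% of all genes were higher. Examples are ZNF441 (225, 324 and 244; 0.46, spot SD 0.09, at the low dose), ZNF564 (203, 309 and 273; 0.55, spot SD 0.09) and ZNF563 (123.4, 160.9 and 150.4; 0.32, spot SD 0.11). The second probe of ZNF563 had -0.19 at the low dose, the opposite sign. ZNF763 went the other way (1257, 1013 and 1422; -0.37, spot SD 0.07). With no filter on dim probes, the group 3 median turned to 0.01 below the all-gene median (-0.01).

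In group 5, 16 of 21 were higher and 5 lower at the low dose (median 0.11, with 8 higher and 2 lower by more than 2 spot SDs, against the same 26.7% and 32.4%), against 13 higher and 8 lower at the high dose (median 0.02). It holds ZNF682, ZNF99 and ZNF430 (109.8, 140.0 and 60.6; 0.29 at 10 μM and -0.61 at 100 μM, with a second probe above background at the low dose alone), as well as ZNF91 on the lower side. ZNF254 was near control on both treated arrays by its brightest probe (4759, 5156 and 4219; 0.05 and 0.08), and its 3 other measured probes had -0.41, -0.22 and -0.07 at the low dose. Their control signals were far lower, at 69, 313 and 120 in the same order.

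In the other large groups the low dose median was -0.14 (group 12, 6 higher and 10 lower), -0.13 (group 15, 8 higher and 19 lower) and -0.17 (group 16, 13 higher and 31 lower). Their high dose medians were 0.25, 0.08 and 0.09. Relative to the median of all genes, which shifts with any constant applied to an array, the high dose medians were 0.23 in group 3, -0.22 in group 9 and 0.17 in group 12. Group 12 is the one that holds ZNF224 and ZNF404. Of its 16 measured members 13 were higher than control at the high dose, where 56.8% of all genes were, and both values depend on the scaling. Between the doses 14 of these 16 were lower at the low dose (median -0.56), where 59.4% of all genes were (median -0.09). Besides ZNF224 and ZNF404, members of the group with higher high dose ratios included ZNF223 (66.8, 61.1 and 85.8; 0.61 at the high dose), ZNF226 (463.4, 500.5 and 597.6; 0.62) and ZNF235 (53.1, 39.4 and 63.3; 0.50), with ZNF225 above background at the high dose alone.

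**Figure D4:**
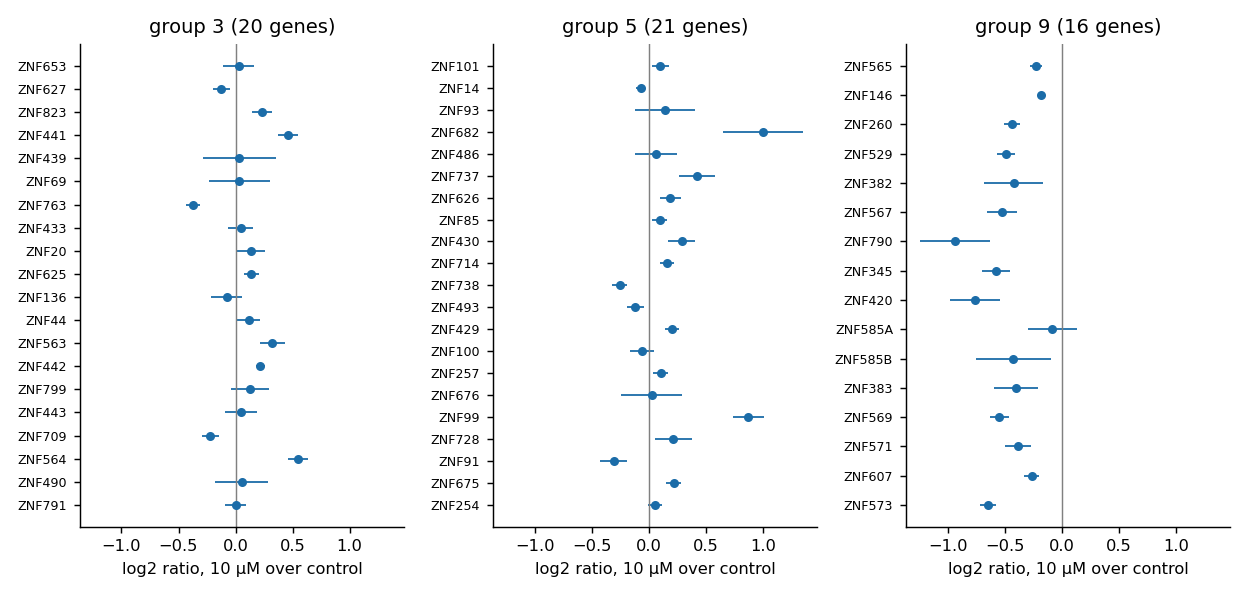
Log2 ratio of 10 μM over control (horizontal axis) for each measured member of groups 3, 5 and 9, listed in order along the chromosome. Points are the ratio of 1 array to 1 array and bars are 1 spot SD on either side, which covers the place on the slide only. All 16 members of group 9 lie left of 0, and 16 of 20 and 16 of 21 members of groups 3 and 5 lie right of it.

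The promoters were compared because members of group 9 lay on the same side of control, using RefSeq windows of 300 bases around the gene start (GRCh38.p14), which matched 207 of the 243 members. The motifs were searched on both strands. CCAAT, the CCAAT box, was found in 53.1% of member promoters and 35.7% of all 27305 promoters, and GGGCGG, the GC box, in 67.1% and 44.6%. TTTGAA, the cell cycle homology element, was found in 10.1% and 15.4%, CACGTG, the E-box, in 3.86% and 7.43%, and the p53 half-site in 6.28% and 6.54%. The last motif, ACTACA followed by any 2 bases and TCCCAG, a form of the element that ZNF143 and THAP11 bind, was searched after the promoters had been seen. It was found in 29 of 207 member promoters (14.0%) and 1.15% of all. No motif searched contains another, though hits of different motifs may overlap.

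The position groups differed in these letters. CCAAT was in 21 of 23 promoters of group 3 and 26 of 26 of group 5, but in 5 of 24 of group 9 and 4 of 19 of group 12. The ACTACA element was in 9 of 24 promoters of group 9 (37.5%) and 9 of 19 of group 12 (47.4%), and in 0 of 23 and 0 of 26 of groups 3 and 5. The p53 half-site was in 0 of 24 promoters of group 9, 5 of 23 of group 3, 0 of 26 of group 5 and 4 of 19 of group 12. In the same order of groups, GGGCGG was in 7, 22, 19 and 7 promoters, TTTGAA in 1, 5, 1 and 0, and CACGTG in 1, 0, 0 and 1. The promoters of 5 members, chosen after the values were seen, show the 2 kinds. Capitals mark the ACTACA element or CCAAT on either strand.

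ZNF420, chr19:37078183-37078482, plus strand, group 9: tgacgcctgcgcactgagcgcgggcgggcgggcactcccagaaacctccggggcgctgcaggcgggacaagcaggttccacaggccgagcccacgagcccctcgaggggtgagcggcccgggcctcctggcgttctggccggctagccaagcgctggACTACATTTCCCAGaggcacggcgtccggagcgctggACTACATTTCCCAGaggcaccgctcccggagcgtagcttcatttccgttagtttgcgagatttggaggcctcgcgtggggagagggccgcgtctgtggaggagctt
ZNF569, chr19:37467395-37467694, minus strand, group 9: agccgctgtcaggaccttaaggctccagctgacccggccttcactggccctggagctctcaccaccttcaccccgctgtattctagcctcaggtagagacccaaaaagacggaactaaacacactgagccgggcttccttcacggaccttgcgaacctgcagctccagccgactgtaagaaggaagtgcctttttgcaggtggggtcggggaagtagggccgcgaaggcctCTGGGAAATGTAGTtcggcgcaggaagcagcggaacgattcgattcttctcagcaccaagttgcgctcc
ZNF224, chr19:44094111-44094410, plus strand, group 12: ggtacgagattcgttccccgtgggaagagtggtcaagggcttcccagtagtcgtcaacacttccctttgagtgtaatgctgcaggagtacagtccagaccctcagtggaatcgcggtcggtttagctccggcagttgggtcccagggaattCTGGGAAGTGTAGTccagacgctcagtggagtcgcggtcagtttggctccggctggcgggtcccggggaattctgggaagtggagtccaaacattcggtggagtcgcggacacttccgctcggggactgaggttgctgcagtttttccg
ZNF441, chr19:11766750-11767049, plus strand, group 3: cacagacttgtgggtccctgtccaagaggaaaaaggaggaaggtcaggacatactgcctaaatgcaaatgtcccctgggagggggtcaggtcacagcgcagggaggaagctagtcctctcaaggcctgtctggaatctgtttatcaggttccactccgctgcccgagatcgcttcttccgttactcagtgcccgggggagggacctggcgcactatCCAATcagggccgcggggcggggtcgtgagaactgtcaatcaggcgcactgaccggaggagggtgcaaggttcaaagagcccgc
ZNF85, chr19:20923001-20923300, plus strand, group 5: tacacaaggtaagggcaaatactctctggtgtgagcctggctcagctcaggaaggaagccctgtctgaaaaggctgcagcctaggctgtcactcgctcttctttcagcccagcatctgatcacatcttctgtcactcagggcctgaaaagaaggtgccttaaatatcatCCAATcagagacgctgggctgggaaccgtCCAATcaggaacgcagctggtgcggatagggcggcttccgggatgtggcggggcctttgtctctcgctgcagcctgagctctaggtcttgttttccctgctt

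ZNF420 holds 2 copies of the ACTACA element, starting at bases 158 and 195 of the window, and ZNF569 and ZNF224 hold 1 copy each on the other strand. ZNF441 holds 1 CCAAT and ZNF85 holds 2. The 21 measured members with the ACTACA element had a median log2 ratio of -0.30 at the low dose, against -0.04 for the 130 measured members whose promoters lack it. Outside group 9 the medians were -0.19 (15 members) and 0.00 (121 members). Leaving out group 9 does not part the element from position. Groups 3 and 5 held it in 0 promoters, and groups 12 and 16 held it in 9 and 6. The element and the position groups cannot be told apart by this split. At the high dose the medians with group 9 included were 0.06 with and 0.09 without the element. Outside group 9 the high dose order turned, with 0.16 with and 0.10 without it. For CCAAT the low dose medians were -0.07 with it (81 members) and -0.12 without (70 members), and outside group 9 the order turned (-0.06 and -0.02). Other motifs had gaps too. Low dose medians with and without TTTGAA were 0.03 and -0.12, and with and without GGGCGG -0.06 and -0.16. For CACGTG they were -0.05 and -0.08, and for the p53 half-site -0.06 and -0.08. ZNF224, which has the ACTACA element, and ZNF420 and ZNF569, which have it too, differed in direction at the high dose (1.76, -0.11 and -0.58). A match describes letters in a window and does not show that a factor bound there.

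Gene lengths were compared next. The measured members had a median length of 23.1 kb, against 25.9 kb over all measured genes with a length (84.3% had one). The shorter 85 members had medians of -0.12 at 10 μM and 0.11 at 100 μM, and the longer 85 had -0.06 and 0.08. For the low over the high dose the medians were -0.25 for the shorter and -0.09 for the longer members.

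A list of corepressor and chromatin genes was read beside the members. It holds the KRAB partners named above (TRIM28, SETDB1, HP1 genes and histone deacetylases). It also holds other genes of heterochromatin and DNA methylation, such as SUV39H1, UHRF1 and DNMT1. Of 24 listed symbols, 23 were on the arrays (FAM208A was not, and C3orf63 was), all above background on all 3. At the low dose 0 of 23 were past 2-fold (2.44% of all genes higher and 1.09% lower), 9 were higher and 14 lower, and the median log2 ratio was -0.05. At the high dose 0 were more than 2-fold higher (4.83% of all genes) and 3 more than 2-fold lower (3.32%), 6 were higher and 17 lower, and the median was -0.20, against 0.08 over all genes. Between the doses 5 were past 2-fold on the low dose side (3.23% of all genes) and 0 on the high dose side (2.58%), with a median of 0.08 against -0.09 over all genes. The list was chosen with earlier results of these data known, so its counts beside the all-gene shares are descriptions only. Of the 3 lower at the high dose, DNMT1 was just past the limit (-1.007).

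TRIM28, the corepressor that KRAB domains bind, had signals of 4510, 5398 and 2901 in control, low and high dose cells (log2 ratio 0.20 at 10 μM and -0.39 at 100 μM, spot SD 0.06 each). SETDB1, the methyltransferase it recruits, had 2935, 2399 and 1834 (-0.35 and -0.43). Of the HP1 genes, CBX1 (-0.20 and -0.75) and CBX3 (-0.14 and -0.53) were lower on both treated arrays, and CBX5 was higher (0.72 and 0.18). The CBX5 ratio at the high dose turns to the other side of 0 if each array is centred on its median, which lowers all high dose ratios together. Histone deacetylase genes HDAC1 (-0.07 and -0.03) and HDAC2 (-0.21 and -0.48) were less than 2-fold from control.

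The genes past 2-fold in any comparison were UHRF1, DNMT1, SUV39H1, SUV39H2 and DNMT3B. TRIM28, SETDB1, CBX1, CBX3, CBX5, HDAC1 and HDAC2 were not among them. UHRF1, which guides DNMT1 to newly replicated DNA, had signals of 1233, 2133 and 205 (0.73 and -2.34). DNMT1, the maintenance DNA methyltransferase, had 912, 1426 and 382 (0.58 and -1.01), and SUV39H1, a methyltransferase of pericentric heterochromatin, had 211, 267 and 74.7 (0.27 and -1.25). These 3, SUV39H2 (0.53 and -0.81) and DNMT3B (0.76 and -0.29) were the 5 more than 2-fold higher at 10 than at 100 μM. All 5 were on the higher side of control at the low dose, but the rule that picked them uses the low dose value. The full list had a low dose median of -0.05 (9 higher and 14 lower), beside -0.08 for the zinc finger genes as a set.

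**Figure D5:**
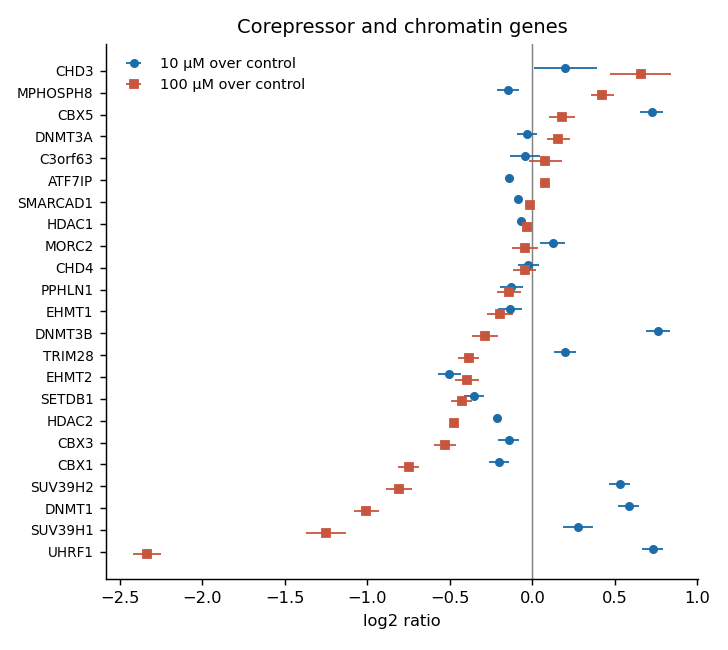
Log2 ratio to control (horizontal axis) of 23 corepressor and chromatin genes at 10 μM (circles) and 100 μM (squares), ordered by the high dose ratio. Bars are 1 spot SD on either side and there is 1 array per condition. UHRF1, SUV39H1 and DNMT1 lie beyond 2-fold below control at the high dose (-2.34, -1.25 and -1.01) and above control at the low dose.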

How the data were processed

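HepG2 cells were treated with 0, 10 or 100 μM etoposide for 30 h, and RNA of each condition was hybridized to 1 Agilent one-color whole human genome array. The deposited files hold spot intensity values (processed signals, already background-subtracted by the authors' run of Agilent Feature Extraction 10.7.3.1 with default parameters), and the deposited series table held the same values for all 44495 spots of each array (within 1e-06). Probe coordinates are hg18 per the file headers.

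Control spots and spots marked as outliers were left out, spots of a probe were averaged as log2 values, and arrays were scaled by its 75th percentile over probes. A gene's value is that of its brightest probe, and ratios were taken for genes well above background on all 3 arrays. With 1 array per condition no test was possible, and the number of arrays limits the precision. Position groups were split at gaps over 1 Mb. Genes were picked for naming from the 8 highest and 8 lowest ratios of each comparison, the largest bounds, members of known role and the corepressor list. Not all genes of these lists are named. Other members are named as examples of position groups or of repeated probes. The members and lists were chosen with earlier results of these data known, and the promoters shown and the ACTACA element after their values were seen. All 243 members matched RefSeq, 10 under another current symbol. Scripts were tested on simulated data and ran in Python 3.11.15 (pandas 2.3.3, numpy 2.4.6) and R 4.3.3 (limma 3.58.1, normexp with offset 50). A grouping of members by finger number and KRAB box was planned and not run, as protein sequences were not used here.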

Additional observations from a re-analysis of the deposited data

How the results depend on the processing

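Each count past 2-fold was recomputed under 14 alternatives and each median under the 12 that alter values. Results are listed as low dose higher and lower, high dose higher and lower, and low over high dose higher and lower, for which the values reported are 0, 1, 4, 1, 1 and 3. With no scaling the counts of low dose higher, high dose higher and lower, and low over high dose higher and lower were 1, 2, 2, 6 and 1. Median scaling gave 2 and 2 at the high dose and 6 and 1 between doses. Quantile normalization gave 2 higher at the high dose and 5 and 1 between doses, and spike-in scaling (7 controls) 1 higher at the low dose and 5 and 1 between doses. The lower count between doses was 5 with the percentile over detected probes and 7 with that over all spots. The normexp correction gave 0 lower at 10 μM, 1 and 0 at 100 μM, and 0 and 1 between doses. A background filter on the brighter array alone gave 2 and 2 at the low dose, 2 lower at the high dose and 2 higher between doses. No filter gave 3 and 7, 14 and 5, and 6 and 13. A limit of 1.5-fold gave 4 and 11, 16 and 9, and 6 and 25, and a limit of 3-fold 0 lower at 10 μM, 1 and 0 at 100 μM, and 1 lower between doses. The cause of each difference was not tested, except that a lower limit or a looser filter admits more genes by construction.

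The members' high dose median minus the all-gene median (0.00) turned to -0.0270 with quantile normalization, -0.0170 with the filter on the brighter array and -0.24 with no filter. The low over high dose difference (-0.12) turned to 0.00722 with no filter, whereas the low dose difference stayed below 0 throughout, from -0.12 to -0.01. No scaling, median scaling, the other percentiles and spike-in scaling shift an array by a constant. They cannot change these differences or those of the position groups. For position groups, whose alternatives were chosen after seeing the data, the group 9 median minus the all-gene median was -0.27 with normexp and -0.57 with no filter, and that of group 3 was -0.0142 with no filter. The all-gene high dose median itself was 0.08 as reported, -0.17 with no scaling and -0.21 with median scaling. Of 228 recomputed values 48 moved past the limit set for them (1.5 times for a count, the median spot SD for a median) and 5 changed sign. No paired analysis was possible because each dose was hybridized once, to 1 array. Dim probes limit what can be read, since 53 members were above background on no array.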
